A study of Mus musculus with 12 samples.

Results

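The genes described are 32 that encode glutamate receptors and the scaffolds that hold them at the postsynaptic membrane: 22 receptor subunits or receptors and 10 scaffold or adaptor proteins. The rule that picks them goes by function and uses no measured value. It was nevertheless set with earlier results of these data known. Each gene was read through the probe set annotated to it alone that had the highest mean over the arrays, called its representative probe set here. Of the 32, 30 had such a probe set and 29 could be tested, out of 18193 genes on the array and 11791 tested. Grin1, the obligatory subunit of NMDA receptors, and Shank2 had no probe set annotated to them alone in the annotation used and were not analysed here. Shank1 averaged 3.54 on the log2 scale, below the lowest tested mean of 4.87, and was not tested.

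RNA of the prefrontal cortex of adult C57BL/6J mice, all untreated and entrained to equal periods of light and dark, was measured at Zeitgeber time (ZT) 3 and 9 in the light and ZT15 and 21 in the dark, where ZT counts hours from lights on. Each of 12 Affymetrix Mouse430_v2 arrays held the RNA of 1 mouse, with 3 mice per ZT point. Frontal cortex was dissected as tissue, so fewer cells of a type and less RNA per cell cannot be told apart, and the mice of the dark points were killed under red light. The sex of the mice is not given in the sources used here, and the 4 points cover a single day.

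Glutamate opens the ionotropic receptors, which are tetrameric cation channels, and activates the metabotropic receptors, which couple to G proteins. AMPA receptors (Gria) carry most fast excitatory current, NMDA receptors (Grin) admit calcium when the membrane is already depolarised, and kainate receptors (Grik) act both before and after the synapse and modulate transmission. Proteins with PDZ domains of the Dlg, Shank, Grip and Pick families bind the tails of these receptors, directly or through partners such as Dlgap1, and the amount of AMPA receptor at cortical synapses is known to differ between sleep and wake.

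Between arrays, log2 values had pairwise correlations of 0.970 to 0.994. The 18S ribosomal RNA control differed widely, from 5.62 in ZT9 replicate 2 to 12.53 in ZT21 replicate 2 on the log2 scale, and lay above 12 in ZT3 replicate 1, ZT9 replicate 1 and ZT21 replicates 1 and 2. Its part in the results was not tested. As the mean log2 intensity over a marker list, pyramidal neuron markers lay between 11.17 and 11.48 in every array, and olfactory bulb markers between 3.13 and 3.33 with 1 of 6 probe sets bright enough to be tested. Striatal markers lay between 7.66 and 8.35. Choroid plexus markers ranged more widely, at 5.83 to 6.01 at ZT3, 6.00 to 8.86 at ZT9, 5.79 to 7.32 at ZT15 and 5.92 to 6.20 at ZT21. The beta-actin control, as the log2 ratio of its 3′ over its 5′ probe set, lay between 0.66 and 0.70 at ZT3, at 0.95, 0.69 and 0.70 at ZT9, at 0.70, 0.67 and 0.84 at ZT15 and at 0.79, 0.79 and 0.88 at ZT21. A higher ratio means fewer copied 5′ ends. All 3 ZT21 arrays, ZT9 replicate 1 and ZT15 replicate 3 stood above the other 7.

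Few of these transcripts passed a test for a difference between times of day. Only Grik3, a subunit of kainate receptors, passed limma's moderated F-test over the 4 ZT points (threshold for the adjusted p 0.20). That is 1 of 29 members, against 1.93% of all tested probe sets. The mean of Grik3 was higher in the dark, but its contrast of dark with light did not pass by limma (adjusted p = 0.117, threshold 0.05). At an unadjusted p under 0.05, 4 of 29 members passed (Grik3, Grik5, Grm4 and Grm5), against 15.5% of all tested probe sets. The range of a gene, the difference between its highest and lowest mean of the 4 ZT points on the log2 scale, had a median of 0.23 over the members and 0.27 over all tested probe sets. The smallest was 0.11, for Gria3, and the largest 1.35, for Grin2a. Grin2a was the dimmest tested member, with a mean of 5.36 near the lowest tested mean of 4.87. The spread between mice of 1 ZT point had a median SD of 0.15 over the members and 0.17 over all tested probe sets. All p-values are from limma and adjusted over every tested probe set.

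**Figure D1:**
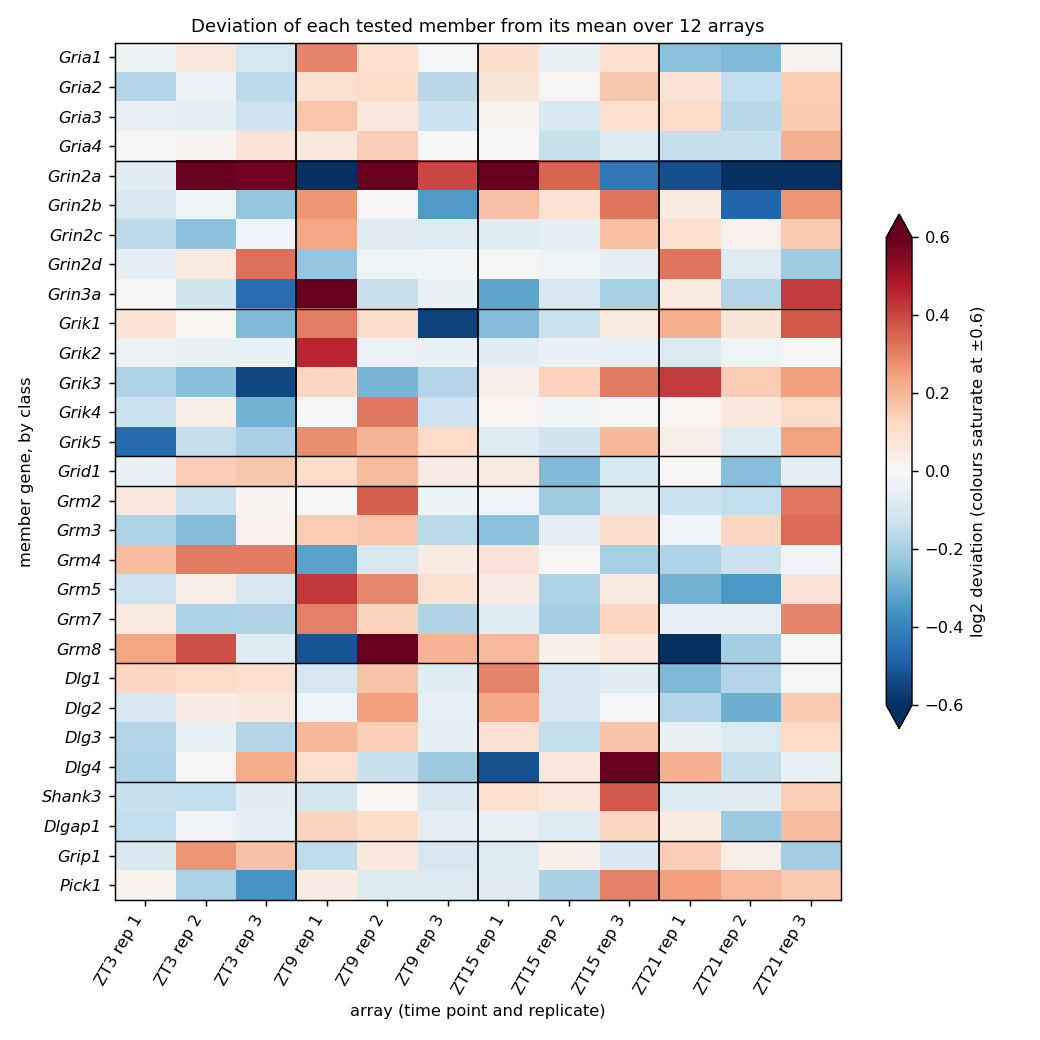
Log2 intensity of the 29 tested members (rows, by class) in the 12 arrays (columns, 3 mice per ZT point), as the deviation of each array from the mean of that gene over all arrays. Red is above the mean and blue below it; colours saturate at 0.6, which Grin2a, Grin3a, Grm8 and Dlg4 pass, and Grik3 is mostly blue at ZT3 and red at ZT15 and ZT21.

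Grik3 encodes a kainate receptor subunit that needs high glutamate concentrations to open. Its log2 intensity was 9.26, 9.19 and 8.90 at ZT3, 9.57, 9.16 and 9.27 at ZT9, 9.49, 9.59 and 9.76 at ZT15 and 9.86, 9.60 and 9.69 at ZT21. The 6 dark arrays overlapped the 6 light arrays in 1 light array, ZT9 replicate 1, which lay above ZT15 replicate 1. ZT15 did not overlap ZT3, and ZT21 did not overlap ZT9. The range was 0.60 (standard error 0.14), from the trough at ZT3 to the peak at ZT21, and the F-test gave an adjusted p of 0.198, close to the threshold. Dark arrays were higher than light arrays by 0.44 on the log2 scale, or 1.35-fold (standard error 0.10, 95% interval 0.23 to 0.65), which did not pass the threshold of 0.05 for this contrast (adjusted p = 0.117). The difference was 0.49 between ZT15 and ZT3 (adjusted p = 0.177) and 0.38 between ZT21 and ZT9 (adjusted p = 0.290). Within ZT9 and within ZT15 the array with the highest actin ratio was also the highest for Grik3, by 0.35 and 0.22 over the mean of the other two. The same array was highest for both at ZT3, where the ratios differed little. At ZT21 replicate 3 had the highest ratio and replicate 1 the highest Grik3. With the actin ratio as a covariate, a fit chosen after seeing the data, the difference between dark and light was 0.38 (standard error 0.09) and the adjusted p of the F-test 0.188. The call ended when 1 of 8 of the 12 arrays was left out, with adjusted p-values of 0.247, 0.446 and 0.452 without ZT3 replicate 1, 2 or 3, 0.244 without ZT9 replicate 2, 0.219 and 0.289 without ZT15 replicate 1 or 2, and 0.404 and 0.291 without ZT21 replicate 1 or 2. A further Grik3 probe set, 1427709_at, lay between 2.46 and 2.68 and was too dim to test.

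**Figure D2:**
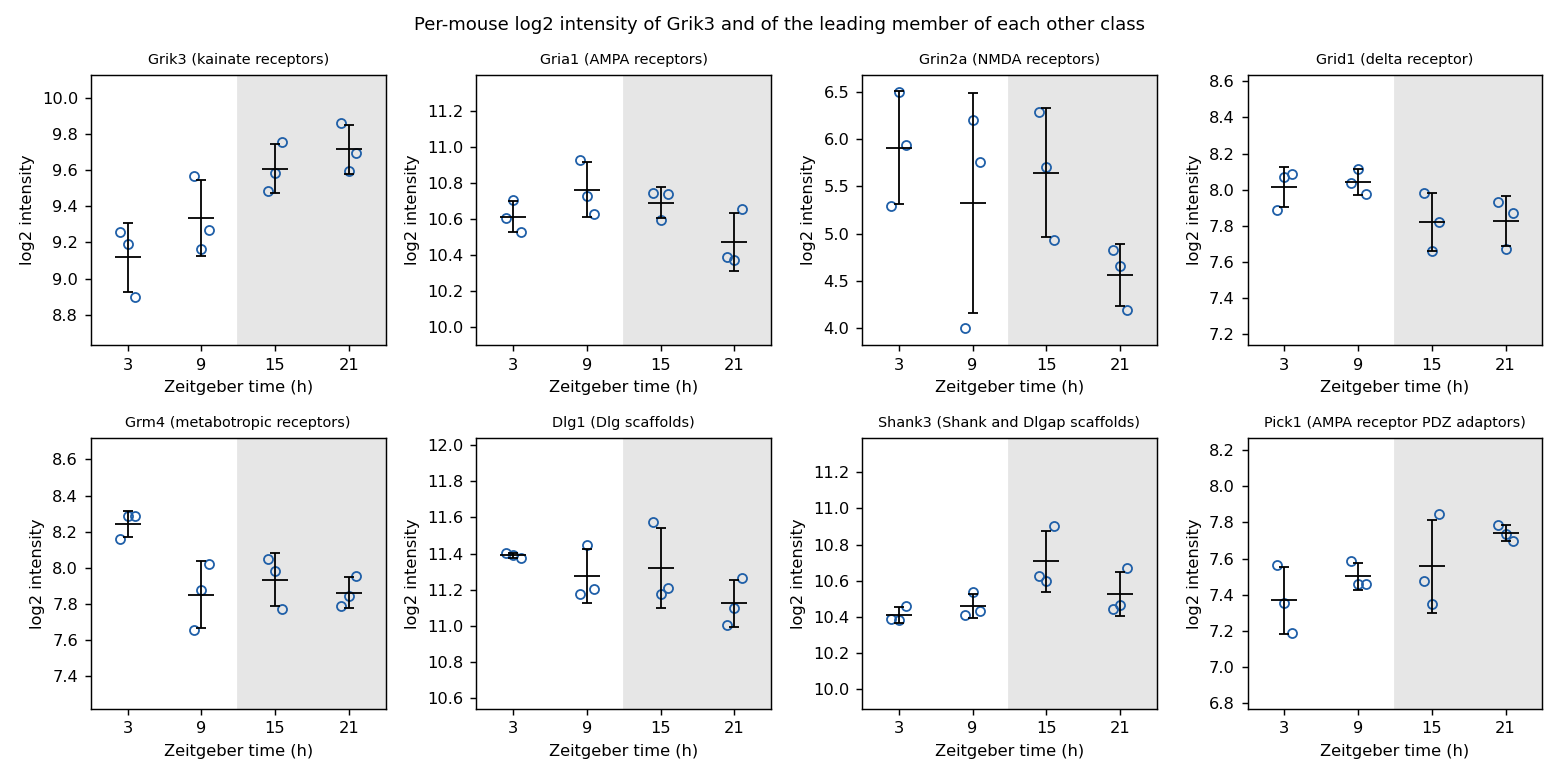
Log2 intensity against Zeitgeber time (hours) for Grik3 and for the member with the smallest F-test p in each other class; open circles are single mice, bars the mean and SD of 3 mice, and grey marks the dark. The 6 dark circles of Grik3 lie at 9.49 to 9.86, with 1 light circle, at 9.57, among them; the 3 ZT3 circles of Grm4, at 8.16 to 8.29, lie above its other 9.

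The sequence before the Grik3 start is shown because this gene alone passed, with that of Dlg1 beside it because Dlg1 was one of the 2 members whose window held the E-box bound by clock proteins. Both are the 250 bases upstream of a RefSeq start in build GRCm38.p6, written 5′ to 3′. Grik3 lies at chr4:125490446-125490695, plus strand, and the capitals mark its 6 GC boxes (GGGCGG or, on the other strand, CCGCCC). Dlg1 lies at chr16:31663685-31663934, plus strand, and the capitals mark only its E-box (CACGTG). This Dlg1 window also holds a GC box on the other strand, left in lower case. Another Dlg1 window with an E-box is not shown.
Grik3: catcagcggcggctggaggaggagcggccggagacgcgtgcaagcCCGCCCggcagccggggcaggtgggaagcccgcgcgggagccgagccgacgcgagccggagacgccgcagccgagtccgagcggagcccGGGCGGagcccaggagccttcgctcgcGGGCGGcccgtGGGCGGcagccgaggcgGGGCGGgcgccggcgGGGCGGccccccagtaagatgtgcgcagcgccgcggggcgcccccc
Dlg1: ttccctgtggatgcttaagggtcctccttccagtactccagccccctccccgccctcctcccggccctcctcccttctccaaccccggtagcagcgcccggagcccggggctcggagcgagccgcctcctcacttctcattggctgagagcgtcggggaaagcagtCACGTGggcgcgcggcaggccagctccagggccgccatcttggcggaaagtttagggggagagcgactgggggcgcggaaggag
The Grik3 window is 82.0% G and C, and that of Dlg1 68.8%, against a median of 52.4% over all promoters. RefSeq windows were at hand for 20 of the tested members, 35 in all. The E-box was in 3 of the 35, of Dlg1 and Dlgap1 (8.57%, against 6.02% of all 32851 windows). The GC box was in 16 (45.7%, against 32.7%). The D-box TTATGTAA was in 1 window, of Dlg1 (2.86%, against 0.819%), and the cAMP response element TGACGTCA in 0 (against 1.55%). Both strands were searched, the motifs do not overlap each other in letters, and a match describes these windows only.

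The other kainate subunits varied less than Grik3 or in another order. Grik5 encodes a high-affinity subunit that works only together with Grik1, Grik2 or Grik3. It measured 9.38, 9.70 and 9.65 at ZT3, 10.12, 10.05 and 9.96 at ZT9, 9.76, 9.72 and 10.04 at ZT15 and 9.88, 9.76 and 10.08 at ZT21. Its 3 ZT3 arrays lay below the other 9, and its means spanned 0.47 (standard error 0.13; F-test adjusted p = 0.275, unadjusted p = 0.0197). Of all tested probe sets 39.0% had their trough at ZT3, and 26.1% with each array centred on its median. How many separate ZT3 from the other points in this way was not counted. Grik1 ranged over 0.33 (adjusted p = 0.602) and Grik4, the other high-affinity subunit, over 0.19 (adjusted p = 0.619). Grik2 lay between 7.51 and 7.60 in 11 arrays and at 8.06 in ZT9 replicate 1, so that its highest mean, at ZT9, rests on 1 mouse. Its value was 7.5571 in each of ZT3 replicates 2 and 3, ZT9 replicate 3 and ZT15 replicate 2. Equal values between mice may be a background level, which was not tested, so a steady transcript cannot be read from this probe set. As a class, the mean deviation of the 5 kainate genes from their own means was -0.15, -0.08 and -0.27 in the ZT3 arrays, 0.23, 0.06 and -0.16 at ZT9, -0.07, -0.03 and 0.11 at ZT15 and 0.12, 0.04 and 0.20 at ZT21. For this class mean, which includes Grik3, the ZT3 arrays lay below those of ZT15 and ZT21, and ZT9 overlapped with every other point. With each array centred on its median, ZT3 still lay below ZT21 but overlapped with ZT15.

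In their representative probe sets AMPA receptor subunits had ranges of 0.11 to 0.29. Of the 4, 0 passed the F-test and 0 were under an unadjusted p of 0.05, against 1.93% and 15.5% of all tested probe sets. Further probe sets ranged over 0.39 for Gria1 (1435239_at) and over 0.45 and 0.18 for Gria2 (1421970_a_at and 1453098_at). For Gria3 (1420563_at) the range was 0.44, and for Gria4 (1440891_at) 0.28. Gria1, which is added to synapses during potentiation, measured 10.61, 10.70 and 10.53 at ZT3, 10.93, 10.73 and 10.63 at ZT9, 10.74, 10.59 and 10.74 at ZT15 and 10.39, 10.37 and 10.66 at ZT21. The ZT21 mice were low except replicate 3, which reached above ZT9 replicate 3, and the groups overlapped. ZT21 minus ZT9 was -0.29 (standard error 0.11, adjusted p = 0.314). Gria2, the subunit whose edited form blocks calcium entry, was 12.93, 12.86 and 13.02 at ZT15, all above 12.68, 12.83 and 12.70 at ZT3, but the difference of 0.20 (standard error 0.11) gave an adjusted p of 0.475. Gria3 ranged over 0.11 and Gria4, an AMPA subunit prominent in interneurons, over 0.15. For Gria3 the 95% interval of dark minus light was -0.13 to 0.21 in the representative probe set. It was -0.54 to -0.05 in 1420563_at (limma, adjusted p = 0.26).

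Among NMDA receptor subunits 0 of 5 passed, against 1.93% of all tested probe sets. The 2 with the largest ranges were also those with the widest spread between mice. Grin2a, the subunit that joins synapses as the cortex matures, measured 5.29, 6.49 and 5.94 at ZT3, 4.01, 6.20 and 5.76 at ZT9, 6.29, 5.71 and 4.93 at ZT15 and 4.83, 4.65 and 4.20 at ZT21. The lowest value was that of ZT9 replicate 1, and the 3 ZT21 mice and ZT15 replicate 3 followed. Those are the 5 arrays with the highest actin ratios. The range of 1.35 (standard error 0.52) gave an adjusted p of 0.385, of 0.531 with the actin ratio as a covariate and of 0.152 without ZT9 replicate 1. Without that array 3013 of all tested probe sets passed the F-test, against 473 with all arrays. With the covariate, dark minus light was -0.15 (standard error 0.17), against -0.52 (standard error 0.36) without it. Grin3a, which lowers calcium entry through the receptor, reached 8.75 in ZT9 replicate 1 and lay between 7.22 and 8.10 in the other 11 arrays (adjusted p = 0.512). Grin2b, the subunit typical of young synapses, was higher in all 3 ZT15 arrays (10.08, 9.99 and 10.23) than at ZT3 (9.81, 9.88 and 9.68), by 0.31 (standard error 0.19, adjusted p = 0.507). Grin2c ranged over 0.23 and Grin2d over 0.20.

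Grid1, a delta receptor that bridges to presynaptic neurexin through secreted cerebellins, did not pass the F-test (adjusted p = 0.404). It measured 7.89, 8.07 and 8.09 at ZT3, 8.04, 8.12 and 7.97 at ZT9, 7.98, 7.66 and 7.82 at ZT15 and 7.93, 7.67 and 7.87 at ZT21. Each ZT21 array was below each ZT9 array, while ZT15 replicate 1 lay above ZT3 replicate 1. Dark minus light was -0.21 (95% interval -0.38 to -0.04, adjusted p = 0.258), and with the actin ratio as a covariate it was also -0.21.

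Of the 6 metabotropic receptors 0 passed the adjusted F-test, against 1.93% of all tested probe sets. At an unadjusted p under 0.05 Grm4 and Grm5 passed with different profiles, against 15.5% of all tested probe sets. Grm4, a presynaptic receptor that lowers transmitter release, measured 8.16, 8.29 and 8.29 at ZT3, 7.65, 7.88 and 8.02 at ZT9, 8.05, 7.98 and 7.77 at ZT15 and 7.79, 7.84 and 7.96 at ZT21. All 3 ZT3 mice lay above the other 9, and the range was 0.39 (standard error 0.11, adjusted p = 0.263, unadjusted p = 0.0153). How many of all tested probe sets separate in this way was not counted. Grm5, the main postsynaptic group I receptor of the cortex, which is linked to the scaffold by Homer proteins, measured 10.59, 10.75 and 10.62 at ZT3, 11.14, 11.00 and 10.80 at ZT9, 10.76, 10.53 and 10.77 at ZT15 and 10.43, 10.37 and 10.80 at ZT21. It was highest at ZT9. The ZT21 values were below those of ZT9, though ZT21 replicate 3 came within rounding of ZT9 replicate 3. ZT21 minus ZT9 was -0.45 (standard error 0.13, adjusted p = 0.253), and the adjusted p of the F-test was 0.296. It was 0.195 with the actin ratio as a covariate, a fit chosen after seeing the data, where Grm5 passed beside Grik3. In that fit 1272 of all tested probe sets passed, against 473 without the covariate. Another Grm5 probe set, 1456119_at, differed by -0.11 between ZT21 and ZT9 (adjusted p of its F-test 0.633). The group II receptors Grm2 and Grm3, which sense glutamate that spills from the synapse, ranged over 0.21 and 0.29. Grm7, a presynaptic receptor of low affinity, ranged over 0.19, and Grm8 over 0.57 with adjusted p = 0.495. Grm8, also dim at a mean of 5.98, was lowest in ZT21 replicate 1 and ZT9 replicate 1, at 5.01 and 5.46.

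Of the scaffold and adaptor proteins 0 of 8 tested passed, also at an unadjusted p under 0.05, against 1.93% and 15.5% of all tested probe sets. Their median range was 0.20, against 0.29 for the 21 tested receptor genes and 0.27 for all tested probe sets. Dlg1 (SAP97), which accompanies AMPA receptors on their way to the membrane, measured 11.40, 11.39 and 11.38 at ZT3, 11.18, 11.45 and 11.20 at ZT9, 11.57, 11.17 and 11.21 at ZT15 and 11.01, 11.10 and 11.27 at ZT21. The ZT21 mice lay below the ZT3 mice and overlapped with those of ZT9 and ZT15 (range 0.27, standard error 0.12; F-test adjusted p = 0.496). Dlg2 (PSD-93) ranged over 0.16 and Dlg3 (SAP102) over 0.23. Dlg4 (PSD-95), the most studied scaffold of the excitatory synapse, had means within 0.14 of each other but differed widely between mice. It measured 9.06, 9.25 and 9.47 at ZT3, 9.35, 9.11 and 9.03 at ZT9, 8.72, 9.31 and 9.86 at ZT15 and 9.46, 9.10 and 9.20 at ZT21. Both its lowest and its highest value were ZT15 mice. Its other tested probe set, 1419581_at, had its lowest and highest values in the same mice, 8.15 in ZT15 replicate 1 and 9.67 in ZT15 replicate 3. The within-time SD was 0.33 for the representative and 0.54 for the other probe set.

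Shank3, the master scaffold whose loss causes autism-like behaviour in mice, measured 10.39, 10.38 and 10.46 at ZT3, 10.41, 10.54 and 10.43 at ZT9, 10.62, 10.60 and 10.90 at ZT15 and 10.45, 10.47 and 10.67 at ZT21. All 3 ZT15 mice lay above all ZT3 and ZT9 mice. ZT15 minus ZT3 was 0.30 (standard error 0.10, adjusted p = 0.283) and dark minus light 0.18 (95% interval 0.02 to 0.34, adjusted p = 0.280). Dlgap1, which joins Dlg4 to the Shank proteins, ranged over 0.14 in its representative probe set (adjusted p = 0.817). Its further tested probe sets ranged from 0.11 in 1440639_at to 0.37 in 1438098_at (F-test adjusted p = 0.283, unadjusted p = 0.0241). Pick1, which binds Gria2 and draws AMPA receptors inside the cell, measured 7.56, 7.35 and 7.19 at ZT3, 7.59, 7.46 and 7.46 at ZT9, 7.48, 7.35 and 7.85 at ZT15 and 7.79, 7.74 and 7.70 at ZT21. The ZT21 mice were above those of ZT3 and ZT9 and lay close together (SD 0.05), whereas the ZT15 mice spread more widely (SD 0.26). The range was 0.37 (standard error 0.13, adjusted p = 0.373). Grip1, which anchors the same receptors, ranged over 0.18.

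Set against the phases of the day, the members stood close to the background. No member passed at an adjusted p under 0.05 in any of 5 contrasts by limma. Between dark and light, before adjustment, Grik3, Shank3 and Pick1 were the 3 higher members with p under 0.05, and Grid1 and Grm5 the 2 lower ones. Of all tested probe sets 8.76% were higher and 6.58% lower at that level, and 0.0937% higher and 0.0% lower at an adjusted p under 0.05. The median difference was 0.01 over the members and 0.01 over all tested probe sets. Between ZT15 and ZT3, 2 members were higher and 1 was lower by the same unadjusted limit, Grik3 and Shank3 above and Grm4 below (9.85% and 2.68% of all; 0.22% and 0.0% at the adjusted threshold), with medians of 0.04 and 0.05. Between ZT21 and ZT9, 1 was higher (Grik3) and 2 were lower (Gria1 and Grm5; 4.18% and 9.07% of all; 0.00407% and 0.0% at the adjusted threshold), with medians of -0.02 for both. Centring each array on its median moved the members' medians to -0.01, -0.04 and 0.01 in these contrasts, and those of all probe sets to -0.01, -0.03 and 0.01, so that the sign of these medians depends on the scaling.

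**Figure D3:**
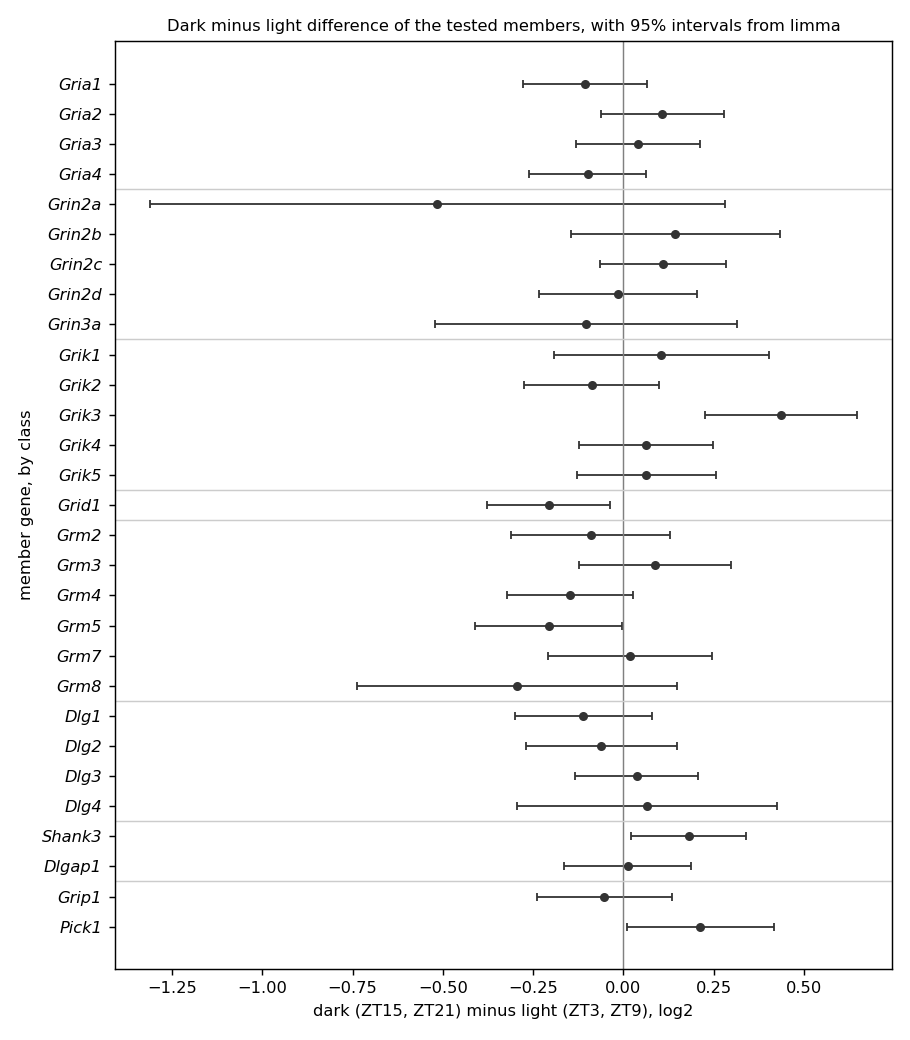
Dark (ZT15 and ZT21) minus light (ZT3 and ZT9) difference on the log2 scale for the 29 tested members, by class; points are estimates from limma over 12 arrays and bars their 95% intervals. The interval of Grik3, 0.23 to 0.65, stands to the right of the others' estimates, and those of Grin2a and Grm8 are the widest.

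The early and the late sample of each phase were compared too. For ZT3 and ZT15 against ZT9 and ZT21, 2 members were higher (Grin2a and Grm4) and 1 was lower (Grik5) by that limit (3.31% and 6.76% of all; 0.0122% each way at the adjusted threshold). The early difference, ZT15 minus ZT3, stood above the late one, ZT21 minus ZT9, by that limit in 3 members, Gria1, Grik5 and Grm5 (8.47% of all; 0.0204% at the adjusted threshold), and below it in 0 (2.3% of all; 0.00407%). Counted by arrays that did not overlap, ZT15 lay above ZT3 in 5 members (Gria2, Grin2b, Grik3, Grik5 and Shank3; 15.1% of all tested probe sets) and below it in 1 (Grm4; 7.09%). ZT21 lay above ZT9 in 2 (Grik3 and Pick1; 5.24%) and below it in 2 (Grid1 and Grm5; 6.78%). For 0 members did all 6 dark arrays lie above or below all 6 light arrays (0.473% and 0.204%). Of the 29 members 13 peaked at ZT9 (44.8%, against 29.1% of all tested probe sets), 6 each at ZT3 and ZT21 and 4 at ZT15. With each array centred on its median, 8 of 29 peaked at ZT9, against 20.3% of all.

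Several genes were read by more than 1 probe set, and some of these went different ways. Of the 23 further tested probe sets of the members 0 passed the F-test, against 1.93% of all tested. At an unadjusted p under 0.05, 2 passed (1421970_a_at of Gria2 and 1438098_at of Dlgap1), against 15.5% of all tested. They were lowest at ZT21 in 13 of 23 (56.5%), against 6 of 29 representative probe sets (20.7%) and 30.0% of all tested. In 14 of 23 the difference between ZT21 and ZT3 had the opposite sign to that of the representative, whose own difference was often near 0. For Gria2 it was -0.26 in 1421970_a_at, -0.18 in 1453098_at and 0.15 in the representative 1434146_at. For Gria3 it was -0.44 in 1420563_at and 0.11 in 1434728_at. For Grik2 it was -0.68 in 1425790_a_at and 0.00 in 1457683_at, the probe set with equal values in several arrays. For Grin2b it was -0.31 in 1422223_at and 0.07 in 1442370_at. For Grin3a it was -0.03 in 1458378_at and 0.29 in 1436575_at, and for Grm7 -0.0004 in 1458861_at and 0.17 in 1443119_at. For Dlgap1 it was -0.11 in 1429105_at, -0.20 in 1453027_at and -0.11 in 1440639_at. It was 0.14 in 1438098_at and 0.08 in the Dlgap1 representative 1436076_at. Other pairs ran the other way, with 0.25 in 1435951_at and -0.12 in 1421350_a_at for Grip1, and 0.12 in 1456119_at and -0.12 in 1455272_at for Grm5. For Dlg4 it was 0.10 in 1419581_at and -0.01 in 1419580_at. The further probe sets of Dlg1 differed from each other, at -0.78 in 1450768_at and 0.15 in 1445798_at, against -0.27 in the representative 1415691_at. Both further probe sets of Dlg2 had the sign of the representative 1437927_at but a larger size, at -0.62 in 1421200_at and -0.51 in 1421199_at against -0.11.

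Some of these further probe sets also differed between mice of 1 ZT point along with the actin control. The Dlg1 probe set 1450768_at measured 10.45, 10.70 and 10.67 at ZT3, 9.80, 10.72 and 10.35 at ZT9, 10.72, 10.35 and 9.59 at ZT15 and 9.51, 9.80 and 10.18 at ZT21. Its 5 lowest arrays were ZT21, ZT9 replicate 1 and ZT15 replicate 3, the same arrays that had the highest actin ratios. The Dlg2 probe set 1421200_at measured 9.13, 9.57 and 9.53 at ZT3, 8.54, 9.50 and 9.40 at ZT9, 9.39, 9.43 and 8.10 at ZT15 and 8.85, 8.61 and 8.91 at ZT21, with the same 5 arrays lowest. ZT9 replicate 1 and ZT15 replicate 3 both lay more than 0.25 below the mean of their own ZT point's other mice in 4 of the 23 further probe sets (1450768_at of Dlg1, 1421199_at and 1421200_at of Dlg2, and 1425790_a_at of Grik2), in 1 of the 29 representative ones (Grin2a) and in 7.56% of all tested probe sets. Both lay more than 0.25 above it in 2 of the 23 (Dlg4 and Grip1), in 3 of the 29 (Dlg4, Grik1 and Grm7) and in 13.5% of all. With the actin ratio as a covariate, dark minus light was -0.29, against -0.43 without it, for 1450768_at of Dlg1, and -0.18, against -0.39 without it, for 1421200_at of Dlg2. Where on the transcripts these probe sets lie was not examined here.

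**Figure D4:**
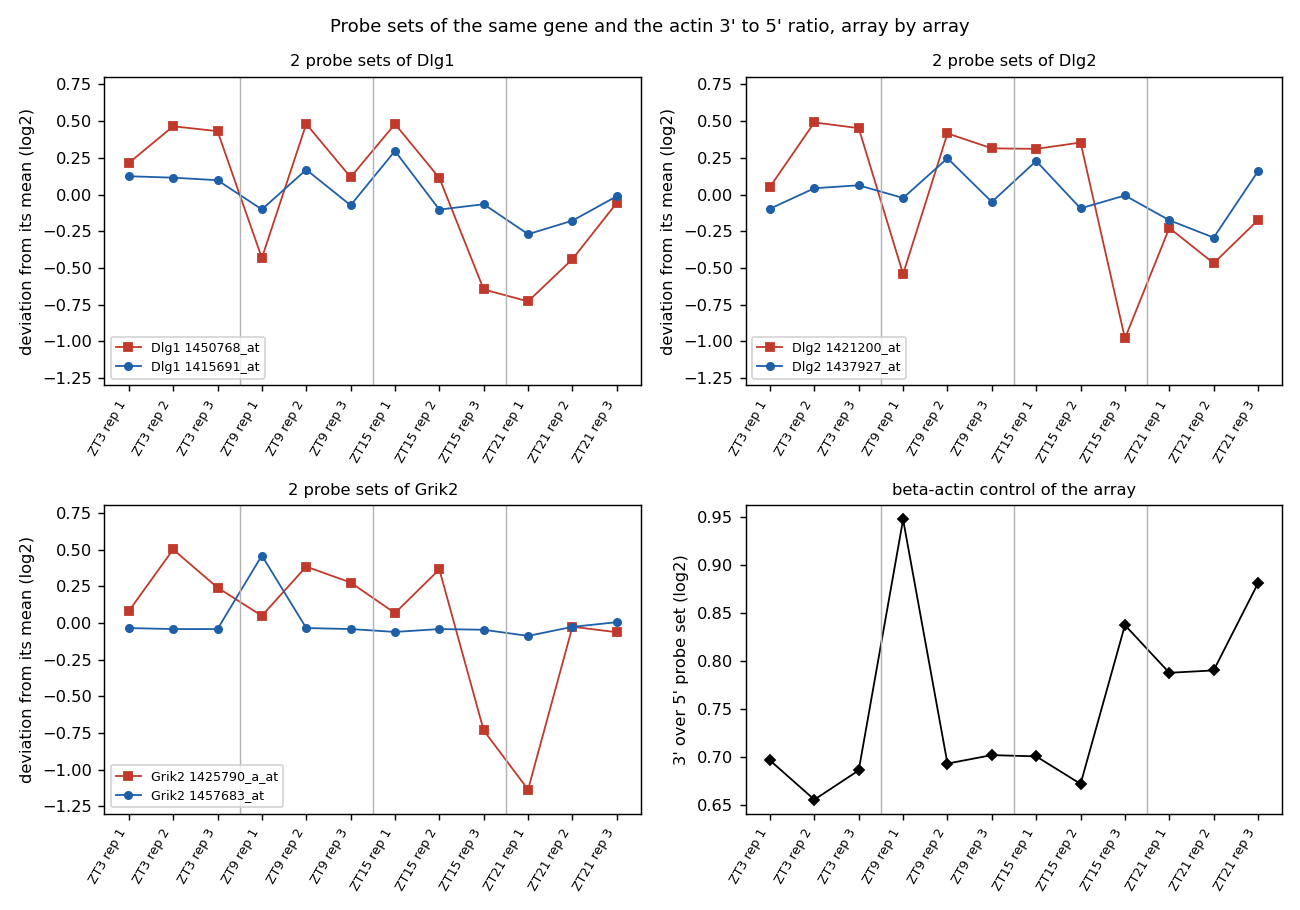
Deviation of a representative (blue circles) and a further (red squares) probe set from its own mean, log2 scale, in the 12 arrays for Dlg1, Dlg2 and Grik2, and the log2 3′ over 5′ ratio of the beta-actin control in the same arrays (black diamonds). The red squares of Dlg1 and Dlg2 dip in ZT9 replicate 1, ZT15 replicate 3 and at ZT21, where the actin ratio is 0.79 or more, while the blue circles move less.

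Among 99 further genes of the excitatory synapse, 83 were tested and 3 passed the same F-test, with 15 at an unadjusted p under 0.05. Of all tested probe sets 1.93% passed and 15.5% were under that unadjusted p. Homer1, which links Grm5 to Shank proteins and has a short activity-induced form, had its trough at ZT9 (10.59 ± 0.13, SD, n = 3) and its peak at ZT15 (11.20 ± 0.11), 0.61 apart (standard error 0.10, limma, adjusted p = 0.121). Lrrtm2, an adhesion protein that holds AMPA receptors at synapses, had its trough at ZT3 (10.13 ± 0.24) and its peak at ZT15 (10.79 ± 0.19; adjusted p = 0.188). Cacng2 (stargazin), the auxiliary subunit that ties AMPA receptors to Dlg4, had its trough at ZT9 (8.68 ± 0.18) and its peak at ZT15 (9.16 ± 0.12; adjusted p = 0.195). All 3 peaked at ZT15, and Grik3 at ZT21. Leaving out any 1 of 6 arrays ended the call of Homer1 (adjusted p of up to 0.273; ZT3 replicates 2 and 3, ZT15 and ZT21 replicates 1 and 2). For Lrrtm2 these same arrays and ZT9 replicate 2 did so (up to 0.486). For Cacng2 the 6 arrays named for Homer1 did so too, with ZT3 replicate 1, ZT9 replicate 3 and ZT15 replicate 3 (up to 0.428).

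The background for each list below was 1.93% of all tested probe sets past the F-test and 15.5% under an unadjusted p of 0.05. By list, 1 of 13 tested AMPA receptor auxiliary subunits passed (Cacng2), with Cnih2 at an adjusted p of 0.326 and Shisa9 at 0.363. Of the other postsynaptic scaffolds 1 of 18 passed (Homer1), with Dlgap2 at 0.284 and Lin7c at 0.309. Of the adhesion proteins 1 of 12 passed (Lrrtm2), and its relatives Lrrtm1 and Lrrtm4 had adjusted p-values of 0.228 and 0.247. Lrrtm1 had a range of 0.97 and its highest mean at ZT21. None of 14 postsynaptic signalling enzymes passed (Camk2a 0.302, Ppp3ca 0.421 and Camk2b 0.467), where 1 was under an unadjusted p of 0.05. Among genes of receptor endocytosis and recycling 0 of 15 passed and 4 were under an unadjusted p of 0.05, led by Snx27, which returns receptors to the membrane (0.224), Rab11fip2 (0.279) and Grasp (0.281). Among genes of glutamate uptake, loading and metabolism 0 of 9 passed and 1 was under an unadjusted p of 0.05 (Slc38a2, a glutamine transporter, 0.266), with the glutamate transporters Slc1a1 and Slc1a3 at 0.329 and 0.363. The kainate receptor partners Neto1 and Neto2 had adjusted p-values of 0.421 and 0.502.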

How the data were processed

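The authors extracted expression values with GCRMA in GeneSpring and took detection calls from MAS5. The deposited values are intensity on a linear scale, 1 per probe set and array, with no detection calls in the table, so signal over background could not be read per probe set and the number of arrays limits the precision. By the paper each array held RNA of 1 mouse. Of 45101 probe sets 64 are controls. In the annotation used, 34945 of the others carry 1 gene symbol, 932 several and 9160 none.

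Here values were taken as log2 (floor 1, which no value lay below), and the 24546 probe sets with the highest mean, the number the authors kept by detection calls, were tested by a linear model over all 12 arrays (R 4.3.3; limma 3.58.1, functions lmFit and eBayes). The moderated F-test over the 4 ZT points had a threshold of 0.20, after the study's false discovery rate, and the 5 contrasts 0.05, two-sided, both with Benjamini-Hochberg adjustment across every tested probe set. The multiclass SAM of the methods was not run. The calculations were run on simulated data with independent noise, which checks the code and not the calls reported here.

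The members and lists were chosen with earlier results of these data known. Named were all 32 members, in full those past the F-test and the one with the smallest F-test p in each class, up to 3 genes per other list by F-test p, and further probe sets of a member that went against its representative one. Values of other members and of some further probe sets were printed after they had been seen. Separations of arrays were also picked out then. Only those of ZT15 against ZT3, ZT21 against ZT9 and dark against light were counted over all tested probe sets. Alternatives were quantile normalization, median centring, array weights, a robust prior with an intensity trend, the 15000 brightest probe sets or no filter at all, the replicate block, other choices of the probe set per gene, each array left out, and the actin 3′ to 5′ ratio as a covariate, the last added after seeing the data. Promoters are those of RefSeq, GRCm38.p6. Figures were drawn with matplotlib 3.10.9 (Python 3.11.15, numpy 2.4.6, pandas 2.3.3).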

Additional observations from a re-analysis of the deposited data

How the results depend on the processing

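Of the 29 members, the number past the F-test (1 as reported) was 17 with array weights, 3 with quantile normalization, 2 with the actin ratio as a covariate, and 0 with an intensity trend and robust prior, with no filter and with the replicate block. It ranged from 0 to 4 with 1 array left out (0 where the call of Grik3 ended; 3 without ZT9 replicate 1, with Grin2a and Grm4 added; 2 without ZT9 replicate 3, with Grm4; 2 without ZT15 replicate 3, with Grik5; 4 without ZT21 replicate 3, with Grik5, Grm4 and Grm5). The number of all probe sets past it (473) was 14718 with array weights, 2144 with quantile normalization, 1362 with median centring, 1330 among the 15000 brightest, 1272 with the covariate, 194 with no filter and 91 with the replicate block, and ranged from 40 to 3013 with 1 array left out. Without ZT9 replicate 1 or 3 this number was 3013 or 1492. It was 1379 without ZT15 replicate 3 and 2870 without ZT21 replicate 3. Where the call of Grik3 ended it lay between 40 and 252. The cause was not tested. In the contrasts (0 members) array weights gave 4 for ZT21 minus ZT9, 3 for dark minus light, 1 for early minus late and 1 for the difference of the day-night differences. How many of all probe sets passed these contrasts with array weights is not given here, so the member counts have no background beside them. Dark minus light ranged from 0 to 1 with 1 array left out (Grik3, without ZT9 replicate 1). No other alternative moved these 4 counts or that of ZT15 minus ZT3. The adjusted p of Grik3 was 0.209 with the intensity trend, 0.293 with no filter and 0.323 with the replicate block, and at most 0.198 in the other settings that kept all arrays. Its difference between dark and light lay between 0.38 and 0.50 in all settings. Members other than Grik3 were called in 19 of 273 combinations of member and setting, and in 7 of 336 with 1 array left out. Most of the 19 came from array weights.

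The replicate block takes the replicate numbers of the titles as a fixed term. The numbers were not treated as pairing mice: deviations of arrays of the same number correlated at -0.498 to 0.487 over 18 pairs (median -0.089) and those of other numbers at -0.393 to 0.588 over 36 pairs (median 0.059). With the block the calls of Homer1, Lrrtm2 and Cacng2 ended too, at adjusted p-values of 0.278, 0.328 and 0.349.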
